A study of Mus musculus with 4 samples.

Results

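The endocannabinoid system of the midbrain was represented by 6 genes. These were Cnr1, which encodes the CB1 cannabinoid receptor, the diacylglycerol lipases Dagla and Daglb, the monoacylglycerol lipase Mgll, the phospholipase Napepld and the fatty acid amide hydrolase Faah. Every probe set whose only gene symbol in the platform annotation was one of these was taken, which gave 11 of 45037 probe sets. Cnr1 and Faah had 2 probe sets each, Mgll had 4, and Dagla, Daglb and Napepld had 1 each.

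RNA was measured on 4 Affymetrix arrays, 2 of TRAP RNA (replicates 2 and 4) and 2 of input RNA (replicates 1 and 2). Each array held a pool of 5 adult mice of both sexes, 6 to 12 weeks old, from the Slc6a3 JD1640 TRAP line. All mice, those behind the input arrays included, carried a Slc6a3 BAC with EGFP/RPL10A at the translation start of Slc6a3, heterozygous in a line founded on FVB and bred to C57BL6/j. TRAP (translating ribosome affinity purification) pulls down the tagged ribosomes with their mRNA. The TRAP arrays are thus enriched for ribosome-bound RNA of cells in which this BAC is active, in 1 transgenic line. Other RNA remains in them, and the paper describes the Gad1 signal left in TRAP as likely non-specific background. The input arrays hold RNA of the whole dissected midbrain, which the labels call unbound (total). In such bulk RNA, fewer cells of a type and less RNA per cell cannot be told apart.

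Endocannabinoids are lipid messengers made on demand in the postsynaptic membrane. The main one, 2-arachidonoylglycerol (2-AG), is cut from diacylglycerol by Dagla or Daglb, travels back across the synapse to CB1 on the axon terminal, where it reduces transmitter release, and is degraded mostly by Mgll. Anandamide can be released from its membrane precursor by Napepld and is degraded by Faah. Midbrain dopamine neurons are known for releasing 2-AG onto their GABA and glutamate inputs, whose terminals carry CB1.

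Levels are given in arbitrary expression units, 2 raised to the deposited log2 value, and are compared only between arrays for the same probe set, since probe sets differ in how brightly they report a transcript. A probe set is termed above background where both arrays of at least 1 fraction reached 50 units. Fold changes are TRAP over input on the log2 scale, with the standard error and adjusted p from limma over all 45037 probe sets and a threshold of 0.05. The purification label was checked on 9 dopamine neuron markers, all of which were higher in TRAP (adjusted p under 0.05 from limma). Th, which makes the dopamine precursor L-DOPA, stood at 16613 and 20947 units in TRAP and at 326 and 386 in input. Across the 17073 probe sets above background the median log2 fold change was 0.44. Centring each array on bright probe sets lowered that median by 0.41, so a log2 fold change near 0.44 on the deposited values is a typical one. A control measure that bears on RNA quality also differed by fraction and between the TRAP arrays. The 3′ minus 5′ difference of the Actb controls was 6.45 and 4.82 log2 units on TRAP replicates 2 and 4. It was 7.30 and 7.08 on input replicates 1 and 2. The cause of these differences was not tested.

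Of the 11 endocannabinoid probe sets, 6 were above background, and they covered 5 of the 6 genes. The 2-AG synthesis genes Dagla and Daglb had higher levels on both TRAP arrays than on both input arrays, and Cnr1, both bright probe sets of Mgll, and Napepld had lower levels. None of these differences passed the threshold: 0 of 6 were higher and 0 lower by limma at an adjusted p under 0.05, and 1 had an unadjusted p under 0.05. Among all probe sets above background, 28.0% passed (18.8% higher and 9.13% lower) and 41.0% had an unadjusted p under 0.05. The arrays of the 2 fractions did not overlap for any of the 6, 2 with TRAP higher and 4 with TRAP lower, beside 76.3% of all probe sets above background (51.5% with TRAP higher and 24.9% with TRAP lower). After centring on bright probe sets, 0 of the 6 were higher and 2 lower (Mgll 1426785_s_at and Napepld), beside 21.9% and 22.6% of all probe sets above background. The median log2 fold change of the 6 was -0.84, against 0.44 over all probe sets above background.

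**Figure D1:**
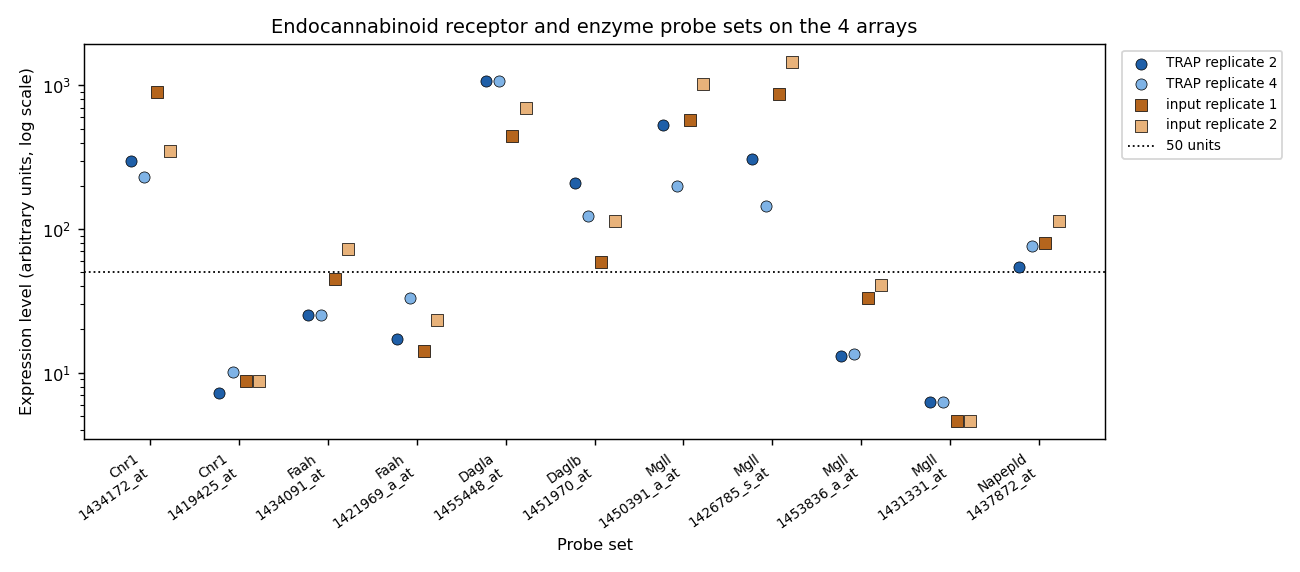
Expression level (arbitrary units, log axis) of the 11 probe sets on each array, with TRAP arrays as circles, input arrays as squares and 50 units as a dotted line. Levels compare between arrays within a probe set and not between probe sets. Dagla lies at 1077 and 1071 units in TRAP and at 443 and 693 in input.

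Dagla encodes the diacylglycerol lipase that makes most of the 2-AG used at synapses of the adult brain. TRAP replicates 2 and 4 read 1077 and 1071 units, and input replicates 1 and 2 read 443 and 693. Both TRAP arrays lay above both input arrays, and the TRAP arrays were nearly the same while the input arrays differed 1.56-fold. The log2 fold change was 0.95 ± 0.30 (SE, limma adjusted p = 0.106), or 1.94-fold, with a 95% interval of -0.18 to 2.09. Of all probe sets above background, 68.2% had a lower log2 fold change than Dagla. After centring on bright probe sets it was 0.55 (limma adjusted p = 0.170). Dagla passed the threshold when either input array was left out, with a log2 fold change of 0.63 without input replicate 1 (limma adjusted p = 0.00584) and 1.28 without input replicate 2 (limma adjusted p = 0.00339). In these fits the spread comes from the nearly equal TRAP arrays alone.

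Daglb, the second diacylglycerol lipase, is known from macrophages and microglia, and has been linked to 2-AG synthesis in dopamine neurons of the substantia nigra. Its levels were 211 and 123 units on TRAP replicates 2 and 4 and 58.7 and 113 on input replicates 1 and 2. The lowest TRAP array exceeded the highest input array by less than the arrays of either fraction differed from each other. The log2 fold change was 0.98 ± 0.57 (SE, limma adjusted p = 0.261, 95% interval -1.18 to 3.14). It was similar in size to that of Dagla with a wider interval, and was 0.57 after centring (limma adjusted p = 0.376). Of 8 microglia markers, 3 were above background, all with negative log2 fold changes (median -1.86). Cx3cr1 passed (limma adjusted p = 0.0269), with both TRAP arrays under 50 units. Between arrays of a fraction these 3 ran with Daglb, higher on TRAP replicate 2 (median 0.77 log2 units, against 0.78 for Daglb) and on input replicate 2 (1.07, against 0.95). This was not particular to microglia. Of 11 astrocyte markers, 10 were higher on TRAP replicate 2 (median 0.81) and 9 on input replicate 2 (median 0.25). All 8 oligodendrocyte, 7 GABAergic and 4 endothelial and mural markers above background were higher on TRAP replicate 2. On input replicate 2, 4, 0 and 1 of these were higher. The other 5 of the 8 microglia markers lay below 50 units on all 4 arrays, and the summed level of the 8 was 469 to 1003 units in TRAP and 1548 to 3192 in input. The part of microglial RNA in the Daglb values was not tested.

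Mgll, the hydrolase that removes most 2-AG, had 2 probe sets above background, and both were lower in TRAP. The one with the highest mean log2 level, by which a gene's brightest probe set is chosen, was 1450391_a_at. It was at 529 and 201 units on TRAP replicates 2 and 4 and at 573 and 1024 on input replicates 1 and 2. TRAP replicate 2 came close to input replicate 1, and the TRAP arrays differed 2.63-fold. Its log2 fold change was -1.23 ± 0.76 (SE, limma adjusted p = 0.278, 95% interval -4.10 to 1.63). The other, 1426785_s_at, has the higher mean in units, so the choice between them decides the fold for Mgll. It was at 310 and 144 units in TRAP and at 868 and 1458 in input, so that its fractions lay farther apart. Its log2 fold change was -2.41 ± 0.62 (SE, limma adjusted p = 0.0852, unadjusted p = 0.0473, 95% interval -4.76 to -0.06), or 5.33-fold lower in TRAP. Only 5.30% of all probe sets above background had a lower log2 fold change than this one. It passed the threshold after centring (-2.82, limma adjusted p = 0.0217) and when only probe sets above background were fitted (-2.41, limma adjusted p = 0.0336), whereas 1450391_a_at did not (limma adjusted p = 0.100 and 0.178). The probe sets therefore shared a direction and differed in size.

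**Figure D2:**
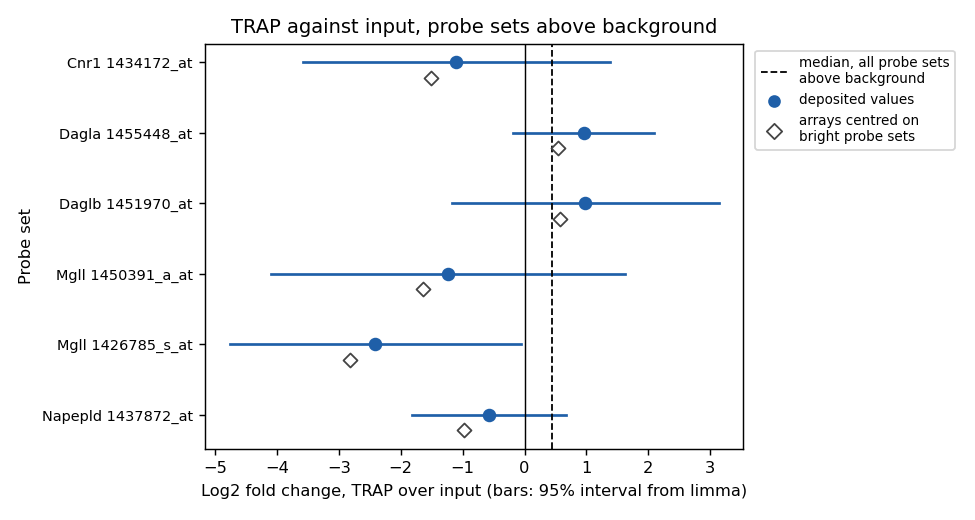
TRAP over input, as log2 fold changes, for the 6 probe sets above background, from the deposited values (circles, bars are 95% intervals from limma) and after centring the arrays on bright probe sets (diamonds). The dashed line is the median of all probe sets above background, 0.44. The interval of Mgll 1426785_s_at ends at -0.06 and the intervals of the other 5 include 0.

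The other Mgll probe sets stayed under 50 units on all arrays. Of these, 1453836_a_at read 13.1 and 13.4 units in TRAP and 33.3 and 41.1 in input, and 1431331_at read 6.26 on both TRAP arrays and 4.62 on both input arrays. They lay apart in opposite directions, and the fit called both (limma adjusted p = 0.0157 and 1.22e-05). At this level many probe sets hold the same value on both arrays of a fraction, as 1431331_at does, and a p-value is then not informative, so they are not counted.

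Markers of several glial types differed between arrays of a fraction in the same direction as Mgll. Astrocytes are known to express Mgll, and all 11 astrocyte markers had negative log2 fold changes (median -1.60, 2 of 11 lower by limma). Of these, 10 were higher on TRAP replicate 2 than on TRAP replicate 4 (median difference 0.81 log2 units), and 9 were higher on input replicate 2 than on input replicate 1 (median 0.25). The same differences for Mgll were 1.40 and 0.84 on 1450391_a_at and 1.11 and 0.75 on 1426785_s_at. The summed level of the astrocyte markers was 21022 to 35476 units in TRAP and 53356 to 62379 in input, with Sox9 the only marker below 50 units on both TRAP arrays. All 8 oligodendrocyte markers measured were also negative (median -1.15, 0 lower by limma) and higher on TRAP replicate 2 (median 1.30), while only 4 of the 8 were higher on input replicate 2 (median 0.02), with summed levels of 35069 to 79088 units in TRAP and 91270 to 96290 in input. The 3 microglia markers above background were higher on TRAP replicate 2 and on input replicate 2 (medians 0.77 and 1.07). On the TRAP arrays this direction was not limited to glia. All 7 GABAergic (median 1.25) and 4 endothelial and mural markers above background (median 1.74) were higher on TRAP replicate 2. On input replicate 2, 0 and 1 of these were higher. The part of glial RNA in the Mgll values was not tested.

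Cnr1 was measured by 1434172_at at 297 and 229 units on TRAP replicates 2 and 4 and at 898 and 350 on input replicates 1 and 2. Input replicate 1 stood apart, 2.57-fold above input replicate 2, whose level was close to that of TRAP replicate 2. The log2 fold change was -1.10 ± 0.66 (SE, limma adjusted p = 0.268, 95% interval -3.58 to 1.38), or 2.15-fold lower in TRAP. Without input replicate 1 it was -0.42 (limma adjusted p = 0.407) and without input replicate 2 it was -1.78 (limma adjusted p = 0.112). The second Cnr1 probe set, 1419425_at, read between 7.19 and 10.1 units on the 4 arrays, with no separation of the fractions at this low level.

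GABAergic neurons are the main site of CB1 mRNA in many brain regions. All 7 GABAergic markers measured were lower on input replicate 2 than on input replicate 1 (median difference -0.33 log2 units, against -1.36 for Cnr1). This was not particular to them, since only 2 of 9 dopamine neuron markers (median -0.36) and 1 of 4 endothelial and mural markers above background (median -0.16) were higher on input replicate 2. Gad1, which makes GABA, was at 9647 and 3529 units on input replicates 1 and 2 and at 3530 and 1676 on TRAP replicates 2 and 4. All 7 were also higher on TRAP replicate 2 than on TRAP replicate 4 (median 1.25, against 0.37 for Cnr1). All 7 had negative log2 fold changes in TRAP (median -1.26), of which Gad2 fell (-2.20, limma adjusted p = 0.00737). Their summed level was 3754 to 9157 units in TRAP and 9548 to 16626 in input, and only Gata3 was below 50 units on both TRAP arrays. The part of GABAergic neuron RNA in the Cnr1 values was not tested.

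**Figure D3:**
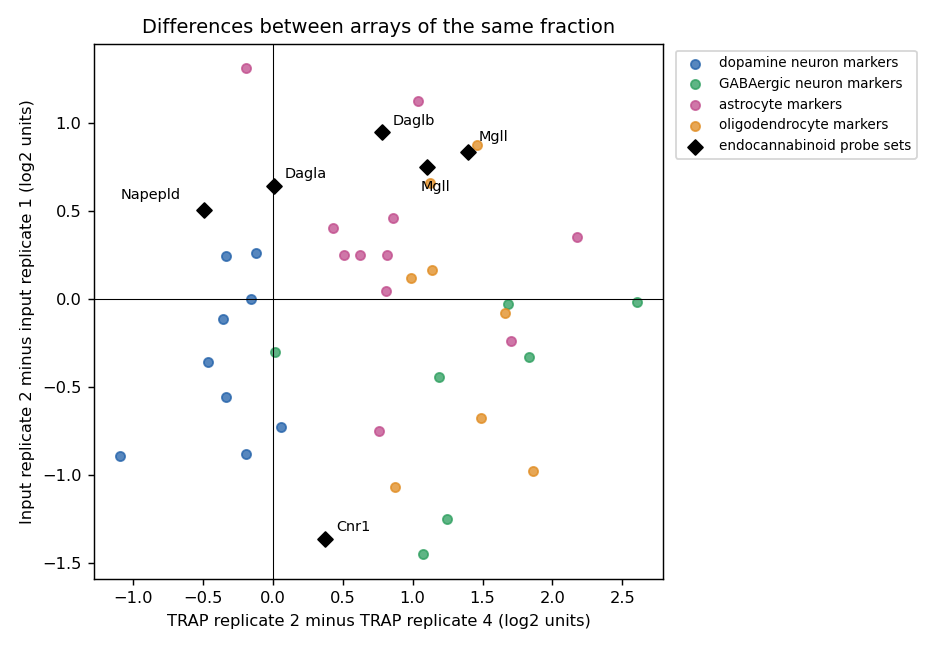
Difference between the TRAP arrays (replicate 2 minus replicate 4, horizontal) and between the input arrays (replicate 2 minus replicate 1, vertical), both in log2 units. Points are the 6 endocannabinoid probe sets and the markers above background of dopamine neurons, GABAergic neurons, astrocytes and oligodendrocytes. Both Mgll probe sets lie at the upper right, among markers of astrocytes and oligodendrocytes. Cnr1 lies at the bottom (0.37 and -1.36), and the markers near it belong to several cell types.

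The probe sets of the anandamide enzymes Napepld and Faah had low readings on all 4 arrays. Napepld, which releases anandamide and related lipid amides from their precursors, was at 54.2 and 76.2 units on TRAP replicates 2 and 4 and at 80.3 and 114 on input replicates 1 and 2. The highest TRAP array lay just under the lowest input array. The log2 fold change was -0.57 ± 0.33 (SE, limma adjusted p = 0.255, 95% interval -1.82 to 0.67), and after centring it was -0.98 with an adjusted p of 0.0478 from limma.

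Faah, which degrades anandamide, did not reach the background level on both arrays of either fraction. Its brighter probe set, 1434091_at, read 25.1 units on both TRAP arrays and 45.1 and 72.4 on input replicates 1 and 2. Only input replicate 2 exceeded 50 units, so no fold is given. The limma fit on the deposited values gave an adjusted p of 0.0852 (0.0217 after centring). It fell under the threshold when either input array was left out, since the TRAP values are equal and the fit then has no spread to weigh the difference against. The other Faah probe set, 1421969_a_at, read 17.2 and 33.3 units in TRAP and 14.2 and 23.1 in input, and its fractions overlapped.

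The label numbers allowed 1 pairing by number, TRAP replicate 2 with input replicate 2, which has no replicate and no test. The paper states that input was taken in parallel from each replicate. Where equal numbers mean the same pool, these 2 arrays share their mice, which the limma fit ignores. The log2 differences of this pairing were 0.64 for Dagla, 0.89 for Daglb, -0.95 and -2.23 for Mgll (1450391_a_at and 1426785_s_at), -0.23 for Cnr1 and -1.07 for Napepld. These 2 arrays are among the 4, and the fractions did not overlap for any of these probe sets. Each difference therefore had to carry the sign found over the 4 arrays, which adds nothing on direction. That of Cnr1 was much nearer 0 than its value of -1.10 over the 4 arrays.

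Other genes of the pathway were taken from a list of 26, of which 24 were measured by a probe set with 1 symbol and 17 were above background on their brightest probe set. Of these 17, 3 were higher in TRAP and 0 lower (5 had an unadjusted p under 0.05 from limma), beside 18.7% higher and 6.87% lower among all genes above background. Their median log2 fold change was 0.22, against 0.44 for all genes.

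Cnrip1 and Sgip1 encode proteins that bind CB1, at its tail and at the machinery of its internalisation. Cnrip1 was at 8039 and 7892 units on TRAP replicates 2 and 4 and at 3610 and 1885 on input replicates 1 and 2. Sgip1 was at 1698 and 3143 units in TRAP and at 771 and 598 in input. For both genes the TRAP arrays exceeded the input arrays, opposite to Cnr1, and neither passed the threshold on its brightest probe set (log2 fold changes 1.61 and 1.77, standard errors 0.44 and 0.45, limma adjusted p = 0.0852 for each). Both passed after centring (limma adjusted p = 0.0445 for Cnrip1 and 0.0339 for Sgip1) and when only probe sets above background were fitted (0.0429 and 0.0369). Neither passed after quantile normalization (limma adjusted p = 0.160 for Cnrip1 and 0.122 for Sgip1) or with values floored at 50 units (0.284 and 0.259). Leaving out an array gave log2 fold changes of 1.14 to 2.08 for Cnrip1 and 1.32 to 2.21 for Sgip1. Without input replicate 1 or input replicate 2, the spread for Cnrip1 comes from its nearly equal TRAP arrays alone. Cnrip1 turned to -0.27 as the mean of its probe sets (limma adjusted p = 0.446), of which the other was below 50 units on all arrays. Sgip1 also passed with an intensity-dependent prior (0.0494). Of the dimmer Sgip1 probe sets, 1425180_at (1.94) and 1440655_at (0.90) were higher in TRAP at an adjusted p under 0.05 from limma. Sgip1 probe set 1431300_at went the other way and was lower in TRAP (limma adjusted p = 0.0154). It reached 50 units only in input, at 192 and 141, and read 24.9 and 19.1 in TRAP. The other measured receptors of the list, Cnr2, Trpv1 and Gpr18, were below 50 units on all 4 arrays.

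On the 2-AG route, Abhd12, a serine hydrolase that also degrades 2-AG, rose in TRAP. It was at 1128 and 1319 units on TRAP replicates 2 and 4 and at 467 and 574 on input replicates 1 and 2 (log2 fold change 1.24 ± 0.17, SE, limma adjusted p = 0.0318), and its second probe set rose by 1.83 (limma adjusted p = 0.0185). Abhd12 missed the threshold when any 1 array was left out (limma adjusted p from 0.0868 to 0.146), after quantile normalization (0.0759) and with values floored at 50 units (0.126). Abhd6, another such hydrolase, was at 500 and 318 units in TRAP and at 404 and 522 in input. Its fractions overlapped on this probe set (log2 fold change -0.20, limma adjusted p = 0.651), while its dimmer probe set was lower in TRAP (-1.13, limma adjusted p = 0.0222). The phospholipases that supply diacylglycerol, Plcb1 (0.15) and Plcb4 (0.42), overlapped between the fractions and did not pass on their brightest probe sets (limma adjusted p = 0.738 and 0.372). A dimmer Plcb4 probe set, 1425339_at, was higher in TRAP (limma adjusted p = 0.0409). It reached 50 units only in TRAP, at 97.5 and 265, and read 8.35 and 9.48 in input. Ddhd1, named after its values were seen, did not pass on its brightest probe set (-0.76, limma adjusted p = 0.274). Its dimmer probe set 1454070_a_at was lower in TRAP (-1.28, limma adjusted p = 0.000504), with equal values on both input arrays. Another, 1445438_at, did not pass (-0.73, limma adjusted p = 0.128).

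On the anandamide route, Gde1, a phosphodiesterase of a pathway to anandamide that does not need Napepld, rose in TRAP. It was at 8712 and 9628 units on TRAP replicates 2 and 4 and at 2149 and 1864 on input replicates 1 and 2, a 4.58-fold difference (log2 fold change 2.19 ± 0.12, SE, limma adjusted p = 0.00526). Leaving out TRAP replicate 2 or 4 raised the adjusted p from limma to 0.0616 or 0.0667. Abhd4, a lipase of the same pathway, was at 3778 and 1370 units in TRAP and at 6144 and 8723 in input. Its TRAP arrays were below both input arrays and 2.76-fold apart (log2 fold change -1.69 ± 0.72, SE, limma adjusted p = 0.170). Gdpd1 (0.93) and Pla2g4e (-0.20), which act on related lipid precursors, overlapped between the fractions on their brightest probe sets and did not pass (limma adjusted p = 0.340 and 0.848). The second Gdpd1 probe set, 1424076_at, did not overlap, at 967 and 1255 units in TRAP and 627 and 515 in input. It did not pass either (0.95, limma adjusted p = 0.0742). Gdpd3, named after its values were seen, was below 50 units on both TRAP arrays (7.33 and 11.4) and at 86.2 and 381 in input, without passing (limma adjusted p = 0.0801).

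Fatty acid binding proteins carry endocannabinoids through the cytosol. Fabp3 rose in TRAP, from 714 and 504 units on input replicates 1 and 2 to 1703 and 1835 on TRAP replicates 2 and 4 (log2 fold change 1.56 ± 0.24, SE, limma adjusted p = 0.0371). Leaving out TRAP replicate 2 or 4 raised its adjusted p from limma to 0.167 or 0.182, and it also missed the threshold after quantile normalization (0.0581), with values floored at 50 units (0.139) and as the mean of its probe sets (0.220). Fabp5 was above input on both TRAP arrays and did not pass on its brightest probe set (0.64, limma adjusted p = 0.128), while its second probe set did (2.51, limma adjusted p = 0.0219). Fabp7, an astrocyte and radial glia protein, was at 604 and 98.2 units in TRAP and at 1278 and 435 in input, with a 6.15-fold difference between the TRAP arrays (-1.61, limma adjusted p = 0.409). Scp2, a sterol carrier, overlapped on its brightest probe set (0.22, limma adjusted p = 0.770), and its probe set 1426219_at was higher in TRAP (2.19, limma adjusted p = 0.0174).

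**Figure D4:**
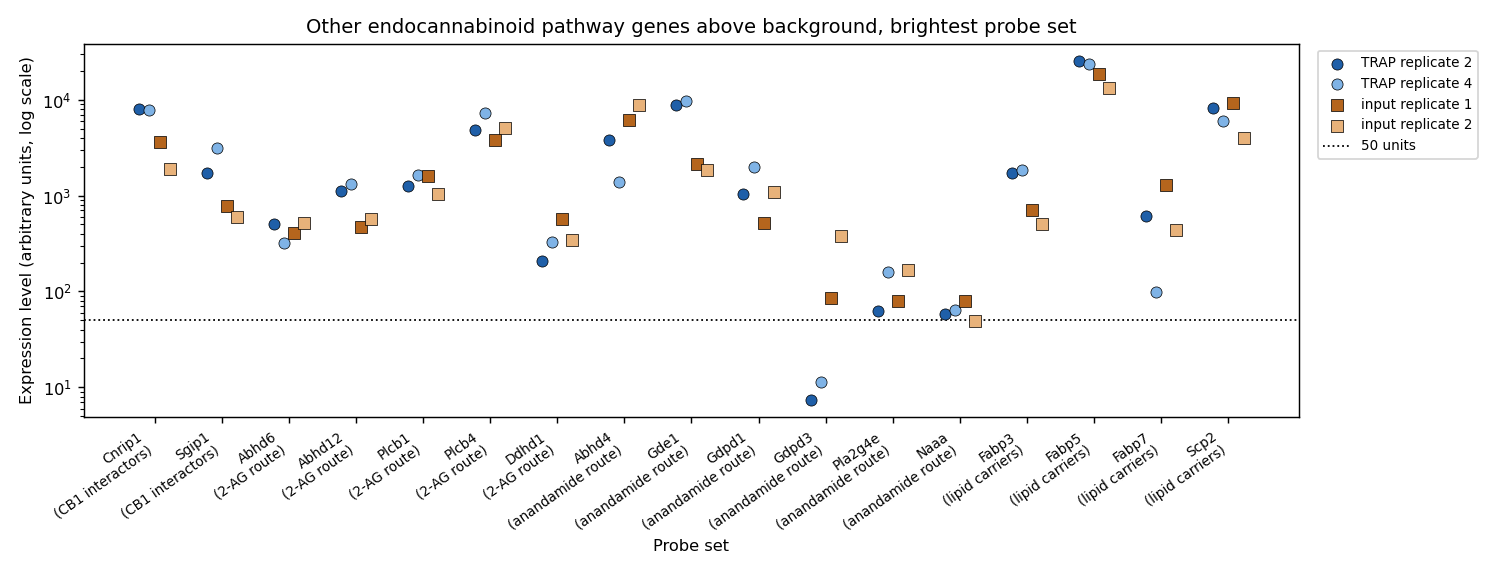
Expression level (arbitrary units, log axis) of the 17 other pathway genes above background, brightest probe set, with TRAP arrays as circles, input arrays as squares and 50 units as a dotted line. Gde1 lies at 8712 and 9628 units in TRAP against 2149 and 1864 in input, and Abhd4 lies at 3778 and 1370 against 6144 and 8723.

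Genes with the most similar pattern were sought by the Euclidean distance of the 4 log2 values centred on their own mean, over 10013 other genes above background. For Dagla these were Mvd, an enzyme of cholesterol synthesis (distance 0.03), and Gpn2 (0.04). Those of Cnr1 were Pfkfb2, a regulator of glycolysis (0.16), and Hectd2 (0.22), and those of Daglb were Mt3, a metallothionein (0.13), and Rasl10a (0.15). Mgll was closest to Foxo1, a transcription factor (0.13), and 2810459M11Rik (0.16), and Napepld to Usp24 and A830082N09Rik (0.08 each). With 4 arrays, and as many genes to choose from, such distances describe these arrays only.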

How the data were processed

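The authors amplified RNA of each pool by the Affymetrix two-cycle method, hybridised it to 430 2.0 arrays and normalized with GCRMA in R (version not given in the sources used here). They deposited log2 values, 1 per probe set and array. Of 45101 probe sets, 64 controls were left out. Dim probe sets sit at near-equal floor values, and 47.8% of probe sets were identical on both TRAP arrays and 41.7% on both input arrays. Probe sets were named from the platform annotation, in which 34945 had 1 symbol, 932 several and 9160 none, and the identifiers of the 6 endocannabinoid genes were found in a RefSeq table (GRCm38.p6). TRAP was compared with input by limma 3.58.1 in R 4.3.3, with fraction as the only coefficient, an empirical Bayes variance, 2-sided p-values and Benjamini-Hochberg adjustment over 45037 probe sets. The prior carried 0.317 degrees of freedom and the residuals 2, and the number of arrays limits the precision. An exact permutation test of 2 against 2 arrays cannot go below p = 0.333 and was not used. The fit was also run on simulated normal values, drawn with each probe set's own mean and spread on these 4 arrays. Such a run cannot show how the p-values behave on the real values. The level of 50 units is a counting rule. Where a gene has several probe sets, the one with the highest mean log2 value stands for it as its brightest, with the others given beside it.

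The genes and lists were chosen with earlier results of these data known. The named genes are those behind the 11 probe sets, up to 4 of each pathway role (first those that passed, then the brightest), and the nearest by pattern. Markers are named where their list stands beside a gene. Gdpd3, Ddhd1 and the dimmer pathway probe sets were added after their values were seen. The p-values measure the spread between these pools. Alternatives were quantile normalization, centring on bright probe sets, fitting only the brighter probe sets, a floor of 50 units on every value, an intensity-dependent prior, keeping the controls, a background of 100 units, a threshold of 0.01, averaging the probe sets of each gene, and leaving out each array in turn.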

Additional observations from a re-analysis of the deposited data

How the results depend on the processing

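The 6 member genes kept the direction of their log2 fold change under every alternative run, and Faah could not be fitted among the probe sets above background. Most alternatives could not have turned it. Several reuse the same log2 values, and the fractions did not overlap on the brightest probe set of any of the 6 genes. Leaving out an array or flooring values therefore could not reverse a sign. Only quantile normalization, centring and, for Cnr1, Faah and Mgll, averaging probe sets could. Of the member probe sets above background, 2 were lower after centring and 1 in the fit of brighter probe sets, and leaving out an array gave 0 to 1 higher. After centring, Napepld passed (-0.98). Leaving out an array gave 0.63 to 1.28 for Dagla, which passed without either input array. For Faah, whose TRAP levels are below background, the fitted differences are no measured folds: -1.60 after centring and -1.53 to -0.85 on leaving out an array, under the threshold after centring and without either input array. In the pathway list the 3 genes higher in TRAP became 1 after quantile normalization, with values floored at 50 units or at a threshold of 0.01, 5 after centring or in the fit of brighter probe sets, and 0 to 3 on leaving out an array (0 without TRAP replicate 2 or TRAP replicate 4). The 0 lower became 1 after centring, in the fit of brighter probe sets, with the intensity-dependent prior and with averaged probe sets. Signs turned for Cnrip1 with averaged probe sets (-0.27), for Plcb4 (-0.11), Plcb1 (-0.34) and Scp2 (-0.33) after quantile normalization, and for Plcb1 (-0.26) and Scp2 (-0.19) after centring. On leaving out an array, Plcb1 ranged from -0.17 to 0.46, Abhd6 from -0.53 to 0.12, Pla2g4e from -0.88 to 0.49 and Scp2 from -0.38 to 0.83. The cause was not tested. No paired analysis was possible because the fractions share only 1 replicate number. Signal over background limits Faah, which has no measured fold.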
